A study of Mus musculus with 12 samples.

Results

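The genes described here encode the machinery that acidifies the lysosome and the proteases that work inside it: the subunits of the vacuolar proton pump (V-ATPase), the cathepsins, legumain, the lysosomal membrane proteins LAMP1, LAMP2 and mucolipin-1, and the transcription factors TFEB and TFE3. They were taken by gene symbol, as every symbol beginning Atp6v or Atp6ap and every cathepsin named by a single letter other than Ctsg, together with Lamp1, Lamp2, Lgmn, Tfeb, Tfe3 and Mcoln1. Of 15986 genes in the files, 41 matched, and 35 of them had at least 10 counts in at least 3 of the 12 libraries. The 35 were 9 subunits of the V1 sector, 7 of the V0 sector, 2 accessory subunits, 8 cysteine cathepsins, 3 aspartic or serine cathepsins, legumain, 3 membrane proteins and 2 transcription factors. All 35 also passed the filter of the test.

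The cells were mature neutrophils from mouse bone marrow, isolated by positive selection for Ly6G, from C57BL/6 wild-type mice and from Rab27a knockout mice on the same strain label. A 6 h incubation followed, either with CpG-B (ODN 1826), a synthetic DNA that activates the endosomal receptor TLR9, at 5 µM, or without it. The 4 groups were thus unstimulated wild-type, wild-type with CpG, unstimulated knockout and knockout with CpG, each with 3 libraries numbered 1 to 3, and the unstimulated cells are called vehicle-treated in one label and untreated in another. RNA with a polyA tail was sequenced. The sources used here do not give the age and sex of the mice, the knockout allele or whether a number stands for 1 animal. The p-values therefore reflect only how far these libraries vary, and that variation may be technical.

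Lysosomes are kept acid by the V-ATPase, a rotary pump whose V1 sector hydrolyses ATP in the cytosol and whose V0 sector carries protons through the membrane. Cathepsins need that acid to mature and to cut protein, and in endosomes cathepsins and legumain also cut TLR9, a step that the receptor needs before it signals. TFEB and TFE3 enter the nucleus when lysosomes are under demand and bind the E-box CACGTG in promoters of lysosomal genes. Rab27a is a small GTPase that brings granules and lysosome-related organelles to the plasma membrane.

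Libraries held 10928813 to 15513279 counts. Rab27a averaged 113 CPM (counts scaled to the library's total) in the knockout against 272 CPM in wild-type cells without CpG, and 107 against 236 CPM with it, with no overlap between the libraries. The defining neutrophil markers were high in every library: S100a8 lay between 5377 and 15609 CPM, Csf3r between 3497 and 5218 CPM and Ly6g between 112 and 197 CPM. The knockout libraries differed from each other in genes of other cells. The summed level of 8 erythroid markers was 452, 1893 and 6216 CPM in unstimulated knockout libraries 1, 2 and 3 and 534, 1723 and 6259 CPM in the CpG-treated ones, against 4069.7 to 5349 CPM over the wild-type libraries, and that of 8 B cell markers ran from 6.8 to 104 CPM in the knockout against 27.1 to 43.3 CPM in wild-type. Knockout library 2 with CpG also stood apart, with the 5377 CPM of S100a8. In bulk RNA, fewer cells of a type and less RNA per cell cannot be told apart.

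With CpG, 4 of the 35 genes were called in each genotype, and a gene not called is not thereby shown to be unchanged. Tfe3 and the cysteine cathepsin genes Ctsz and Ctsb rose by 1.46 to 1.90-fold in wild-type and in knockout cells, the aspartic cathepsin gene Ctse fell in wild-type cells and the serine carboxypeptidase gene Ctsa fell in knockout cells. The words rose, fell and called are kept for genes whose adjusted p was at most 0.05 in the quasi-likelihood test of edgeR, with p-values adjusted by Benjamini-Hochberg over all 10802 genes tested. In wild-type cells 4 of 35 genes were called (11.4%), 3 higher and 1 lower, beside 6.04% of all genes tested (4.74% higher and 1.30% lower). In knockout cells 4 of 35 were called (11.4%), 3 higher and 1 lower, beside 11.6% of all genes (7.57% higher and 4.06% lower), so that the share called was near the background. With library size as the only scaling, 3 were higher and 4 lower in the knockout, and this moved the split over all genes there from 818 higher and 439 lower to 739 higher and 778 lower. The main edgeR fit, used for these calls, leaves out the pairing of same-numbered wild-type libraries. With genotype and library number together as a block, edgeR called 7 of 35 for CpG in wild-type cells (16.9% of all genes). In knockout cells that block called 13 of 35 (24% of all genes). Between the genotypes without CpG 1 of 35 was called (2.86%, beside 4.75% of all genes, 2.11% higher and 2.64% lower), Ctse, which was lower. With CpG 0 of 35 were called between the genotypes, beside 3.92% of all genes (1.70% higher and 2.21% lower). An unadjusted p under 0.05 in edgeR was reached there by 4 of 35, beside 18.1% of all genes. DESeq2 called 1 of 35, beside 6.80% of all genes. Under library-size scaling 1 of 35 was called there, and the split over all genes moved from 184 higher and 239 lower to 155 higher and 314 lower. The median log2 fold change of the 35 genes was 0.09 and -0.05 for CpG in wild-type and knockout cells and 0.06 and -0.09 for the knockout without and with CpG, beside -0.01, -0.01, -0.01 and 0.00 over all genes tested. Each CpG comparison shares a group of libraries with each genotype comparison, so those values are not independent.

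**Figure D1:**
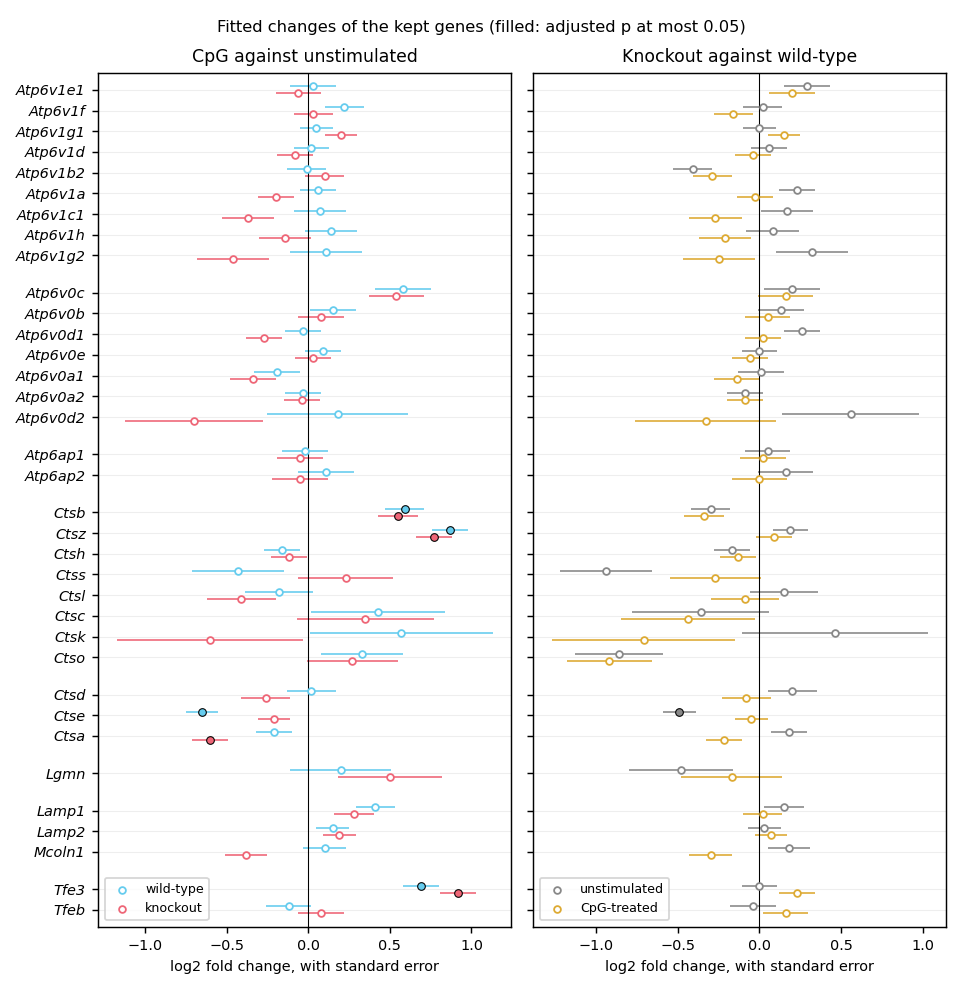
Fitted log2 fold change (points) and standard error (lines) of the 35 genes, for CpG against unstimulated in each genotype (left) and knockout against wild-type in each treatment (right), grouped by role. Filled points have an adjusted p of at most 0.05: Tfe3, Ctsz and Ctsb to the right of 0 in both genotypes, Ctse and Ctsa to the left, and no V-ATPase subunit.

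Of the transcription factors, Tfe3 rose and Tfeb did not pass. Tfe3 stood at 118, 118 and 136 CPM in unstimulated wild-type libraries 1, 2 and 3, 196, 205 and 199 with CpG, 133, 121 and 117 in unstimulated knockout libraries, and 243, 257 and 204 in knockout libraries with CpG. Every CpG-treated library lay above every unstimulated one in each genotype. The rise was 1.61-fold in wild-type cells (log2 0.69, SE 0.11; edgeR adjusted p = 0.00122) and 1.90-fold in the knockout (log2 0.92, SE 0.11; edgeR adjusted p = 6.59e-05). The difference of the rise between genotypes, 0.23 on the log2 scale with an SE of 0.15, did not pass. The files list 12 transcripts of Tfe3, and the leading one took from 0 to 50.9% of its count in single libraries, so only the sum over the gene is used. Tfeb stood at 89.2, 91.3 and 102 CPM in unstimulated wild-type, 82.5, 86.8 and 91.5 in CpG-treated wild-type, 91.2, 99.6 and 84.9 in unstimulated knockout and 109, 108 and 74.4 in CpG-treated knockout libraries. The 4 groups overlap, and its CpG effect was -0.12 (SE 0.14) in wild-type and 0.08 (SE 0.14) in knockout cells on the log2 scale. Levels between genes are compared in the authors' TPM, which also scale for transcript length. Tfe3 averaged 56.0 ± 2.47 TPM (SD, n = 3) and Tfeb 63.7 ± 2.88 TPM in unstimulated wild-type cells, and Tfe3 90.6 ± 6.27 and Tfeb 58.9 ± 2.15 TPM in wild-type cells with CpG. In TPM, Tfeb was thus the higher of the pair in wild-type cells without CpG and Tfe3 with it. In CPM, which do not scale for length, Tfe3 had the higher mean without CpG too (124 against 94.3 CPM).

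**Figure D2:**
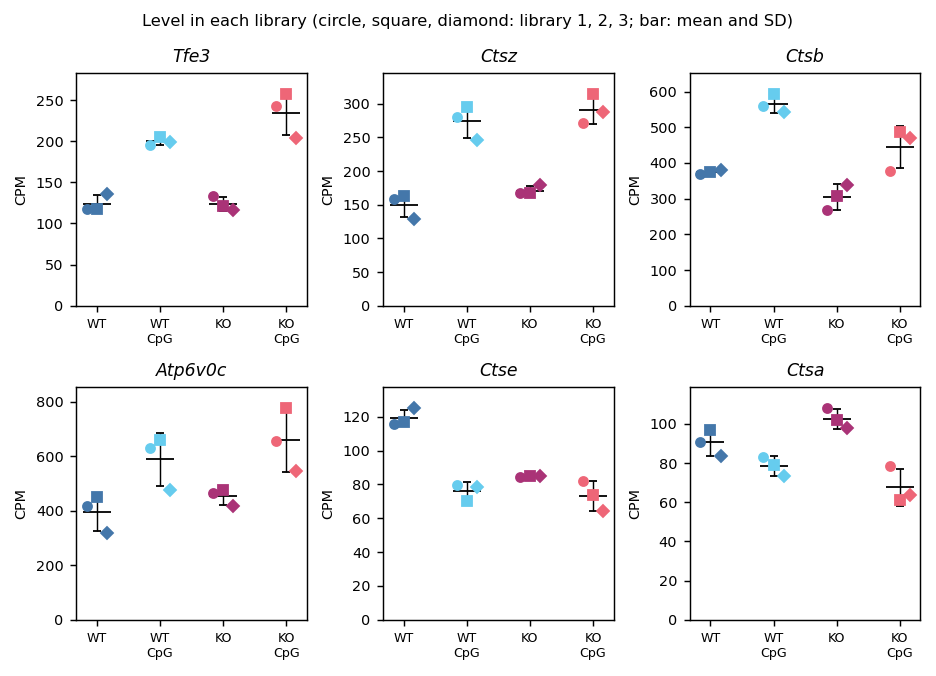
Level in CPM of 6 genes in each library (circle, square and diamond for libraries 1, 2 and 3; bar for the mean and SD of 3) of the 4 groups (WT, wild-type; KO, knockout). Tfe3, Ctsz, Ctsb and Atp6v0c are higher in every CpG-treated library than in any unstimulated library of the same genotype, Ctse is highest in unstimulated wild-type cells, and the mean of Ctsa is lowest in CpG-treated knockout cells.

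Promoters of the family are shown with their E-boxes, the letters that TFEB and TFE3 are known to bind. RefSeq promoter windows (assembly GRCm38.p6, 250 bases before to 50 after each gene's start, 300 in all) were found for 26 of the 35 genes by NCBI gene number. The motif CACGTG, which reads the same on both strands, was present in 10 of the 26 (38.5%), beside 8.09% of the 27025 genes in the table. Some genes had several windows, 34 for the 26 genes and 32851 for the 27025, and a gene counted if any window matched. The longer forms, searched on both strands, all contain CACGTG and so overlap it: TCACGTG was present in 9 of 26 (34.6%, beside 4.29%), GTCACGTG in 7 (26.9%, beside 2.55%) and TCACGTGA in 6 (23.1%, beside 1.12%). The 10 genes were Atp6v0b, Atp6v0d1, Atp6v0e, Atp6v1a, Ctsa, Ctsd, Ctsl, Lamp1, Lgmn and Mcoln1, with 17 matches among them. Lamp1 held 4 of these within 61 bases of its start, the most of any. A match describes the letters only.

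The 250 bases before the start are given for 4 genes with matches and for Ctsz, which rose with CpG and has no match in its window. Each reads 5′ to 3′ on the gene's own strand, with CACGTG in capitals.
Lamp1 (chr8:13158911-13159160, + strand): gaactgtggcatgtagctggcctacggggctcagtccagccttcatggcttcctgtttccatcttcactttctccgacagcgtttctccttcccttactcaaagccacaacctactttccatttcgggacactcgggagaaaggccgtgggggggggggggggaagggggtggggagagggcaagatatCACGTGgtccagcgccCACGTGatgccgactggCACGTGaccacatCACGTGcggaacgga
Ctsd (chr7:142387828-142388077, - strand): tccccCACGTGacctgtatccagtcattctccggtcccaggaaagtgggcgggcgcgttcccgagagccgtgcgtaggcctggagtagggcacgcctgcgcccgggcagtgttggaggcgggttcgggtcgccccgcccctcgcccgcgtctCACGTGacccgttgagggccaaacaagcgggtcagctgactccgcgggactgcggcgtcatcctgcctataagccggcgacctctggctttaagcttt
Ctsa (chr2:164833523-164833772, + strand): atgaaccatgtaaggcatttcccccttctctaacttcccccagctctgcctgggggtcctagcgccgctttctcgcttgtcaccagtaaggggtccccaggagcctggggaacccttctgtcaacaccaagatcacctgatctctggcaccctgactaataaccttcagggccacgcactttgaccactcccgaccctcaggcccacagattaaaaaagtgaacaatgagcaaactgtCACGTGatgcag
Mcoln1 (chr8:3500269-3500518, + strand): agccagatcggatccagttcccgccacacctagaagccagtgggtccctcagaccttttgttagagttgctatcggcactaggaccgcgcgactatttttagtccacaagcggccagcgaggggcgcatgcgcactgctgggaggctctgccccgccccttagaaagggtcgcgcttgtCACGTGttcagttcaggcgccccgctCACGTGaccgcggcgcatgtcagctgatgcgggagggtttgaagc
Ctsz (chr2:174439040-174439289, - strand): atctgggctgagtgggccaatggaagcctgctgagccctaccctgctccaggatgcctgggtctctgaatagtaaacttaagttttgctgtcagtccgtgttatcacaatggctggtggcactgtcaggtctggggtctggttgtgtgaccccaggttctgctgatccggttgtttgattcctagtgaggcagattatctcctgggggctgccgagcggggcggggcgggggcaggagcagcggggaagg

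The second match of Ctsa begins 5 bases after its start and so lies beyond the stretch shown. For the other genes with a match, the 6 letters are shown with 7 bases on each side, 1 site per gene, again with the motif in capitals and on the gene's strand.
Atp6v0b (chr4:117887353-117887372, - strand): cgggggtCACGTGgggtcgg
Atp6v0d1 (chr8:105566055-105566074, - strand): ctgcggtCACGTGagacgcg
Atp6v0e (chr17:26676392-26676411, + strand): cgccgatCACGTGagcctct
Atp6v1a (chr16:44139378-44139397, - strand): tttaaatCACGTGataggct
Ctsl (chr13:64370744-64370763, - strand): tagaagcCACGTGctgatct
Lgmn (chr12:102439129-102439148, - strand): tgtctgtCACGTGgtccatt

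Among the 10 genes with the motif, 0 were called with CpG in wild-type cells and 1, Ctsa, which fell, in knockout cells. Of all genes tested, 6.04% and 11.6% were called in these comparisons (4.74% and 7.57% higher). The log2 fold changes of the 10 genes had a median of 0.08 in wild-type (range -0.21 to 0.41) and -0.23 in knockout cells (range -0.60 to 0.50). Among the 16 genes in the promoter table without the motif, 2 rose in each genotype, and the medians were 0.13 and 0.06. Ctsb and Ctse, both called with CpG in wild-type cells, had no promoter window and so are in neither set. No test of the motif was made.

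**Figure D3:**
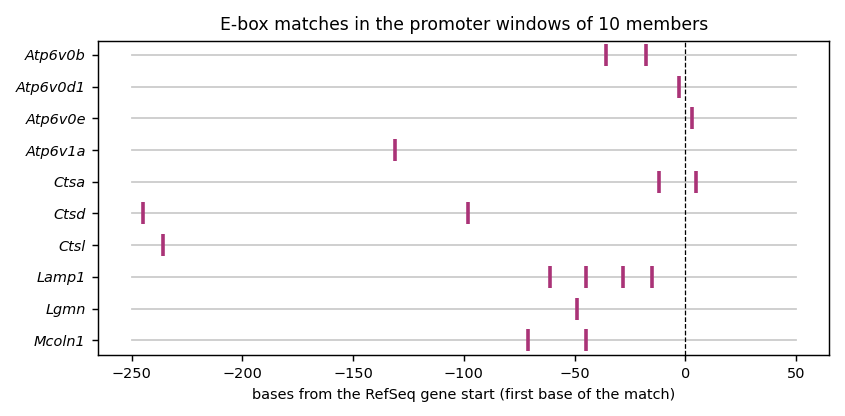
Position of each E-box match (bar, by its first base) in the promoter window of the 10 genes that hold one, in bases from the RefSeq gene start (dashed line). Most matches lie within 100 bases of the start, with 4 in Lamp1, and those of Ctsl and one of Ctsd lie near the far end of the window.

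No V-ATPase gene passed in any comparison in the main edgeR fit. Where a subunit had several gene copies, 1 copy held nearly all of the TPM for subunits G and d and a smaller majority for subunit a. In TPM, the proteolipid gene Atp6v0c, whose product forms the rotating ring of V0, was the most abundant when the groups are pooled, at a mean of 759 TPM over the 12 libraries (442 to 1197). Atp6v1e1, a stalk subunit of V1, followed at 659 TPM (482 to 804), with overlapping ranges. Without CpG the order of the means was the other way, with Atp6v1e1 at 584 and Atp6v0c at 561 TPM in wild-type and 767 and 689 TPM in knockout cells. Subunit G of the stalk came almost wholly from Atp6v1g1, which held 98.0% of the summed TPM of its copies (97.4 to 98.7% over libraries), while Atp6v1g2 held 2.01%. Subunit d, which couples the rotor to the ring, came from Atp6v0d1 at 99.6%, and Atp6v0d2 held 0.43%. Subunit a, the fixed part of the proton path, was mixed: Atp6v0a1 held 59.1% (53.3 to 64.6%), Atp6v0a2 8.66% and Tcirg1, the a3 gene, whose symbol lies outside the rule, 32.3% (27.3 to 38.4%). Atp6v1b2 was the only B gene analysed here.

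**Figure D4:**
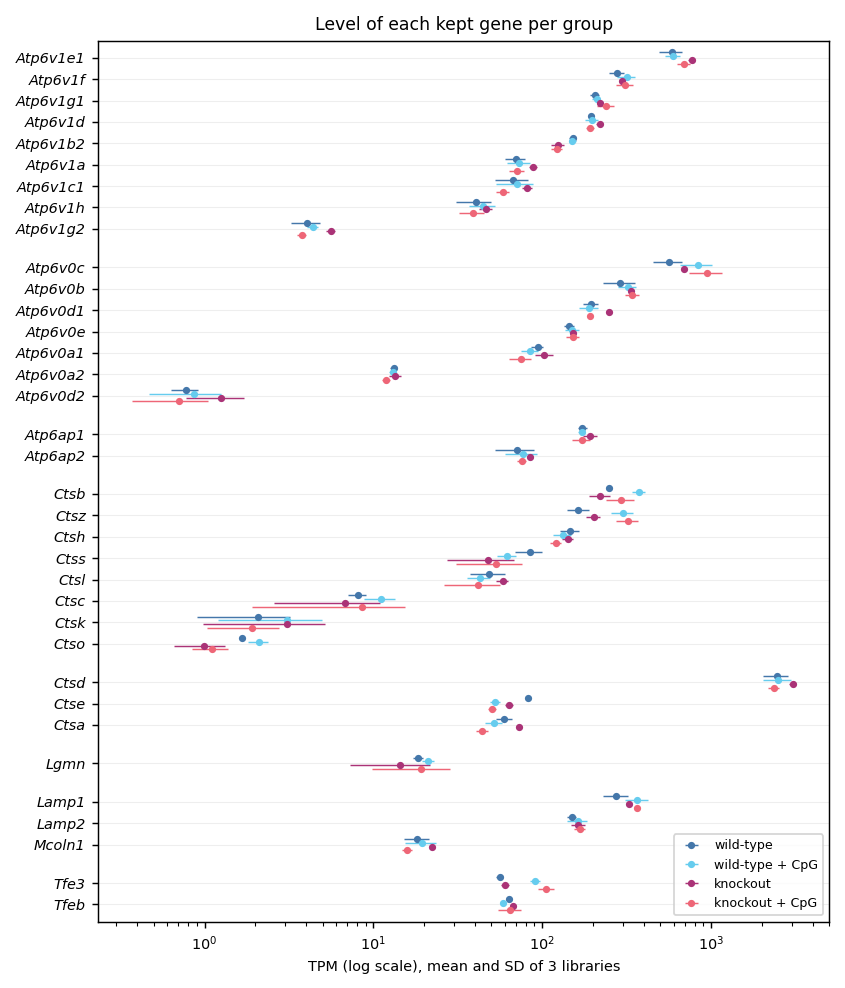
Level of the 35 genes in TPM (log axis), grouped by role and sorted within each, as the mean (points) and SD (lines) of 3 libraries in each group. Ctsd lies above every other gene, Atp6v0c and Atp6v1e1 follow, and Atp6v0d2, Ctso, Ctsk and Atp6v1g2 lie lowest.

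Of the 18 V-ATPase genes 0 were called in each of the 5 comparisons by the main edgeR fit. An unadjusted p under 0.05 was reached by 1 for CpG in wild-type, 4 for CpG in knockout, 4 for the knockout without CpG, 1 with CpG and 0 for the interaction of genotype and CpG. Of all genes tested, in this order, 6.04%, 11.6%, 4.75%, 3.92% and 0% were called. Such an unadjusted p was reached by 16.3%, 22.6%, 17.6%, 18.1% and 3.38% of them. DESeq2 called 1, 1, 1, 0 and 0 of the 18 (7.88%, 13.6%, 7.24%, 6.80% and 0.0278% of all genes). Under library-size scaling edgeR called Atp6v0a1 and Atp6v0d1 for CpG in the knockout (14% of all genes). It called Atp6v1b2 for the knockout without and with CpG (4.94% and 4.34% of all genes). A fit of only the knockout libraries called Atp6v0c and Atp6v1c1 with CpG (9.86% of all genes). With genotype and library number together as a block, 1, 4, 1, 0 and 0 were called (16.9%, 24.0%, 4.76%, 3.82% and 0.12% of all genes). For CpG in the knockout the 4 were Atp6v0a1, Atp6v0c, Atp6v0d1 and Atp6v1c1. The log2 fold changes of the 18 genes with CpG ran from -0.19 to 0.58 in wild-type and from -0.70 to 0.54 in knockout cells, with medians of 0.06 and -0.06. Both upper ends were Atp6v0c. It stood at 416, 451 and 318 CPM in unstimulated wild-type libraries 1, 2 and 3, 629.7, 659.6 and 476 with CpG, 466, 476 and 418 in unstimulated knockout libraries, and 655, 776 and 546 in knockout libraries with CpG. All CpG-treated libraries lay above the unstimulated ones of their genotype. The estimates were 1.49-fold in wild-type (log2 0.58, SE 0.17; edgeR adjusted p = 0.0632) and 1.45-fold in knockout cells (log2 0.54, SE 0.17; edgeR adjusted p = 0.0541). DESeq2 and edgeR with no filter called both changes. With genotype and library number together as a block, the edgeR adjusted p of the wild-type change of Atp6v0c was 0.000208. Small processed copies of this gene exist in the genome, and how reads were divided between them is not given, so its count carries that uncertainty.

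The most abundant subunit of V1, the genes with several copies and Atp6ap2 did not pass in the main edgeR fit. Atp6v1e1 stood at 454, 477 and 365 CPM in unstimulated wild-type, 447, 462 and 418 in CpG-treated wild-type, 566, 547 and 475 in unstimulated knockout and 584, 501 and 435 in CpG-treated knockout libraries. Libraries 1 and 2 of the unstimulated knockout lay above every wild-type library, and the third did not. Atp6v1g1 stood at 132, 138 and 127 CPM in unstimulated wild-type, 139, 134 and 136 in CpG-treated wild-type, 137, 139 and 119 in unstimulated knockout and 157, 158 and 138 in CpG-treated knockout libraries. Its copy Atp6v1g2 stood at 3.67, 3.45 and 5.13 CPM in unstimulated wild-type, 4.2, 3.9 and 5.1 in CpG-treated wild-type, 5.57, 5.01 and 4.69 in unstimulated knockout and 4.19, 3.28 and 3.68 in CpG-treated knockout libraries. The groups of Atp6v1g1 overlap, while the CpG-treated knockout libraries of Atp6v1g2 lay below the unstimulated ones by -0.46 on the log2 scale (SE 0.22; edgeR adjusted p = 0.241). The a-subunit gene Atp6v0a1 stood at 276, 240 and 247 CPM in unstimulated wild-type, 247, 211 and 214 in CpG-treated wild-type, 294, 241 and 234 in unstimulated knockout and 216, 235 and 159 in CpG-treated knockout libraries, with the lowest library among the CpG-treated knockouts. Its copy Atp6v0a2 lay between 41.7 and 54.2 CPM over all libraries, at 52.3 ± 2.59 CPM (SD, n = 3) in unstimulated wild-type and 47.9 ± 5.47 CPM in CpG-treated knockout cells. Atp6v0d1 stood at 217, 219 and 189.7 CPM in unstimulated wild-type, 213, 215 and 187 in CpG-treated wild-type, 267, 251 and 232 in unstimulated knockout and 232, 199 and 189.9 in CpG-treated knockout libraries. Its unstimulated knockout libraries lay above the unstimulated wild-type ones, by 0.26 on the log2 scale (SE 0.11; edgeR adjusted p = 0.244). Atp6v0d2, a copy known from osteoclasts, lay between 0.698 and 2.68 CPM. The accessory gene Atp6ap2, also called the prorenin receptor, stood at 117, 141 and 89 CPM in unstimulated wild-type, 129, 142 and 103 in CpG-treated wild-type, 134, 137 and 116 in unstimulated knockout and 142, 115 and 118 in CpG-treated knockout libraries, and its groups overlap.

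Atp6v1b2, the nucleotide-binding B subunit, was chosen for mention after its values were seen. It stood at 303, 287 and 289 CPM in unstimulated wild-type, 296, 280.1 and 297 in CpG-treated wild-type, 248, 221 and 195 in unstimulated knockout and 268, 242 and 203 in CpG-treated knockout libraries. Every knockout library lay below every wild-type library. The difference was -0.41 without CpG (SE 0.12; edgeR adjusted p = 0.0758) and -0.29 with it (SE 0.12; edgeR adjusted p = 0.209) on the log2 scale, so neither passed in the main edgeR fit. Under library-size scaling both did. DESeq2, the number as a block, and genotype and number together as a block called only the difference without CpG. When single libraries were left out, that difference was called only without CpG-treated knockout library 3. The remaining genes of the pump, Atp6v1a, Atp6v1c1, Atp6v1d, Atp6v1f, Atp6v1h, Atp6v0b, Atp6v0e and Atp6ap1, had log2 fold changes between -0.37 and 0.23 in the CpG and genotype comparisons.

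Among the cysteine cathepsins 2 of 8 rose with CpG in each genotype, Ctsz and Ctsb, and 0 fell. Of all genes tested, 4.74% rose and 1.30% fell in wild-type and 7.57% rose and 4.06% fell in knockout cells. Ctsz, which encodes a carboxypeptidase also called cathepsin X, stood at 158, 163 and 129 CPM in unstimulated wild-type libraries 1, 2 and 3, 281, 295 and 246 with CpG, 167, 167 and 179 in unstimulated knockout libraries, and 271, 314 and 288 in knockout libraries with CpG. The CpG-treated and unstimulated libraries do not overlap in either genotype. It rose 1.83-fold in wild-type (log2 0.87, SE 0.11; edgeR adjusted p = 0.000285) and 1.70-fold in knockout cells (log2 0.77, SE 0.11; edgeR adjusted p = 0.000494). Ctsb, an endopeptidase that can also trim dipeptides, had the highest TPM of the cysteine cathepsins over the 12 libraries pooled (284, beside 247 for Ctsz), though not in knockout cells with CpG (293, beside 322 for Ctsz). It stood at 368, 374 and 379.7 CPM in unstimulated wild-type libraries 1, 2 and 3, 559.9, 592 and 542 with CpG, 267, 307 and 339 in unstimulated knockout libraries, and 378, 486 and 471 in knockout libraries with CpG. It rose 1.51-fold in wild-type (log2 0.59, SE 0.12; edgeR adjusted p = 0.00812) and 1.46-fold in knockout cells (log2 0.55, SE 0.12; edgeR adjusted p = 0.00772). All 3 unstimulated knockout libraries lay below the wild-type ones, and so did the CpG-treated ones, by -0.30 and -0.34 on the log2 scale (edgeR adjusted p = 0.207 and 0.143). The wild-type rise of Ctsb missed the threshold without unstimulated library 1 (edgeR adjusted p = 0.0510) or CpG library 2 (0.0535).

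The sum of 15 monocyte and macrophage markers was also higher with CpG, mainly through Csf1r and Adgre1. The summed level of the 15 markers was 906 to 967 CPM in unstimulated and 1400.5 to 1488 CPM in CpG-treated wild-type libraries. In the knockout it was 715 to 742 CPM without CpG and 1402 to 1826 CPM with it. Of the 15, 2 rose in wild-type cells, Csf1r and the macrophage marker Adgre1 (28.2 to 121 CPM), and 3 in knockout cells. Csf1r, the receptor of the macrophage growth factor, gave most of the difference (197 to 549.8 CPM in wild-type and 169 to 851 CPM in the knockout). Others were near level or lower: Ly6c2, the most abundant of the 15 without CpG, had means of 444 and 482 CPM in wild-type cells without and with CpG, Cd68 166 and 161 CPM, and Ccr2 9.86 and 4.33 CPM. The complement gene C1qa, a marker of tissue macrophages, had means of 11.2 and 11.1 CPM in wild-type and 3.94 and 4.83 CPM in knockout cells without and with CpG. Without CpG, means were also lower in the knockout for C1qb (4.95 against 13.3 CPM), Cd5l (3.3 against 8.25) and Mrc1 (3.91 against 10.3). Those of Ccr2 (14.7 against 9.86 CPM) and Fcgr1 (1.14 against 1.06) were higher. Of the 15, 0 were called lower in the knockout in either treatment, and 1 was called higher in the knockout with CpG. None of the 15 was at 0. The part of such cells in the rises, or in the differences between genotypes, was not tested.

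The other 6 cysteine cathepsins did not pass in any comparison in the main edgeR fit. Ctsh, an aminopeptidase, lay between 112 and 168 CPM, and Ctsl, an endopeptidase, between 28.9 and 67.7 CPM. Ctsk, known from bone resorption, lay between 0.945 and 5.12 CPM, where its spread is wide. Ctsc, which activates the serine proteases of neutrophil granules, Ctss, which trims the invariant chain in antigen presentation, and Ctso differed among the knockout libraries and were chosen for mention after their values were seen. Ctss stood at 66.9, 84.6 and 63.2 CPM in unstimulated wild-type libraries 1, 2 and 3, 44, 55.4 and 59.7 with CpG, 22.8, 37.8 and 51.5 in unstimulated knockout libraries, and 26.6, 46.8 and 58.4 in knockout libraries with CpG. The unstimulated knockout libraries lay below the unstimulated wild-type ones, by -0.94 on the log2 scale (SE 0.28; edgeR adjusted p = 0.0889), and with CpG the groups overlap. DESeq2 and edgeR with no filter called this unstimulated difference of Ctss, which was lower in the knockout. With the block, Ctss fell with CpG in wild-type cells (log2 -0.43; edgeR adjusted p = 0.0146). Ctsc stood at 15.4, 18.8 and 20.3 CPM in unstimulated wild-type, 26, 16.7 and 30.9 in CpG-treated wild-type, 7.65, 12 and 22.6 in unstimulated knockout and 11, 11.6 and 31.5 in CpG-treated knockout libraries. Ctso, another papain-like protease, stood at 4.18, 4.04 and 4.25 CPM in unstimulated wild-type, 5.48, 4.21 and 5.96 in CpG-treated wild-type, 1.42, 2.72 and 2.68 in unstimulated knockout and 2.53, 2.46 and 3.28 in CpG-treated knockout libraries. Every knockout library lay below every wild-type one for Ctso, by -0.86 without CpG (SE 0.27; edgeR adjusted p = 0.0959) and -0.92 with it (SE 0.26; edgeR adjusted p = 0.0741), and DESeq2 called the second.

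Legumain, the asparaginyl endopeptidase encoded by Lgmn, also varied among the knockout libraries. It stood at 25.1, 21.6 and 24.4 CPM in unstimulated wild-type libraries 1, 2 and 3, 24.5, 28.5 and 28.5 with CpG, 9.82, 16.2 and 24.9 in unstimulated knockout libraries, and 12.6, 26.4 and 33 in knockout libraries with CpG. The groups overlap, and the log2 fold changes were 0.20 (SE 0.31) and 0.50 (SE 0.32) with CpG in wild-type and knockout cells. For Ctsc, Ctss and Lgmn the knockout library numbered 1 was the lowest and the one numbered 3 the highest, both without and with CpG. The sums of erythroid and B cell markers stood in the same order in those libraries. So did those of neutrophil precursor markers (563, 661 and 1149 CPM without and 615, 675 and 1090.4 CPM with CpG). The basophil and mast cell sum (3.59, 7.73 and 32.4 CPM, and 4.36, 9.98 and 33.7 CPM) and the dendritic cell sum also kept this order. The sums of neutrophil, monocyte and macrophage, osteoclast, eosinophil, and T and NK cell markers did not keep it in both treatments. In unstimulated knockout libraries the highest was 2.96 times the lowest for Ctsc, 2.26 times for Ctss and 2.53 times for Lgmn, and 13.9% of all genes spread by at least 2-fold there, against 4 of the 35. The part of precursors and other cells in these levels was not tested. Without both knockout libraries numbered 3, Ctsc and Ctso were called lower in the knockout with CpG.

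**Figure D5:**
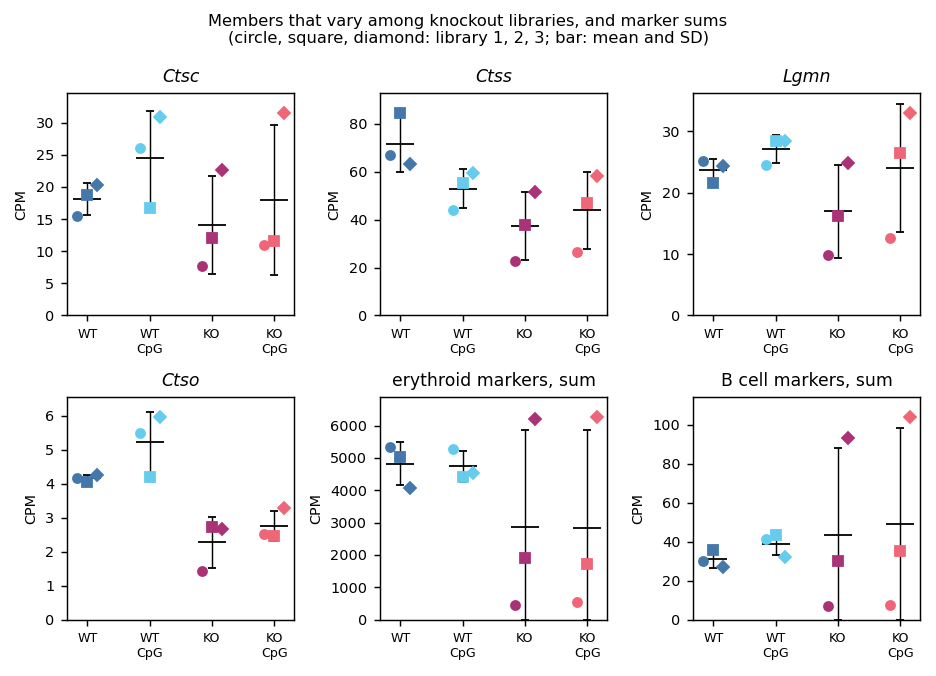
Level in CPM of Ctsc, Ctss, Lgmn and Ctso, and summed CPM of erythroid and B cell markers, in each library (circle, square and diamond for libraries 1, 2 and 3; bar for the mean and SD, ended at 0 where it would pass below). In the knockout groups circles are lowest and diamonds highest for Ctsc, Ctss, Lgmn and both marker sums, while wild-type libraries lie closer together.

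Of the 3 aspartic and serine cathepsins 0 rose and 1 fell with CpG in each genotype, Ctse in wild-type and Ctsa in knockout cells. Of all genes tested, 4.74% rose and 1.30% fell in wild-type and 7.57% rose and 4.06% fell in knockout cells. Ctse, an aspartic protease of endosomes, stood at 116, 117 and 125 CPM in unstimulated wild-type libraries 1, 2 and 3, 79.9, 70 and 78.2 with CpG, 84.2, 85 and 85.2 in unstimulated knockout libraries, and 82.1, 73.5 and 64.5 in knockout libraries with CpG. The unstimulated wild-type libraries lay above all others. Ctse fell 1.57-fold with CpG in wild-type cells (log2 -0.65, SE 0.10; edgeR adjusted p = 0.00138). It was 1.41-fold lower in the unstimulated knockout than in unstimulated wild-type cells (log2 -0.49, SE 0.10; edgeR adjusted p = 0.0136). In the knockout the CpG effect was -0.21 (SE 0.10; edgeR adjusted p = 0.261), and the difference between the CpG effects, 0.44 (SE 0.15), had an unadjusted p of 0.00994 in edgeR and did not pass. Both calls use the unstimulated wild-type libraries. The genotype call was lost without unstimulated wild-type library 3 (edgeR adjusted p = 0.0591) or without unstimulated knockout library 1, 2 or 3 (0.0608, 0.0678 and 0.0504).

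Ctsa, the carboxypeptidase that also protects other lysosomal enzymes, stood at 91, 97.1 and 83.6 CPM in unstimulated wild-type libraries 1, 2 and 3, 83.3, 78.9 and 73.4 with CpG, 108, 102 and 97.8 in unstimulated knockout libraries, and 78.5, 60.9 and 63.7 in knockout libraries with CpG. CpG-treated libraries lay below unstimulated ones in each genotype. It fell 1.52-fold in knockout cells (log2 -0.60, SE 0.11; edgeR adjusted p = 0.00297), while the wild-type estimate was -0.21 (SE 0.11; edgeR adjusted p = 0.419). The difference between these effects, -0.39 (SE 0.16), had an unadjusted p of 0.0278 in edgeR and did not pass. Ctsd, the main aspartic protease of lysosomes, was the most abundant of the 35 genes, at a mean of 2587 TPM (1985 to 3219), 3.41 times Atp6v0c. It stood at 3598, 3171 and 2669 CPM in unstimulated wild-type libraries 1, 2 and 3, 3603, 3263 and 2734 with CpG, 3904, 3645 and 3325 in unstimulated knockout libraries, and 3255, 3181 and 2669 in knockout libraries with CpG. Its wild-type groups overlap. Its CpG-treated knockout libraries lay below the unstimulated ones by -0.26 on the log2 scale (SE 0.15; edgeR adjusted p = 0.365).

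Of the membrane proteins none passed in the main edgeR fit, and Lamp1 came nearest. Lamp1, the main glycoprotein of the lysosomal membrane, stood at 423, 474 and 361 CPM in unstimulated wild-type libraries 1, 2 and 3, 561, 608 and 497 with CpG, 476, 483 and 432 in unstimulated knockout libraries, and 591, 577 and 517 in knockout libraries with CpG. CpG-treated libraries lay above unstimulated ones in each genotype. The estimates were 1.32-fold in wild-type (log2 0.41, SE 0.12; edgeR adjusted p = 0.0770) and 1.21-fold in knockout cells (log2 0.28, SE 0.12; edgeR adjusted p = 0.199). DESeq2 called the wild-type change, and so did edgeR with the wild-type block (adjusted p = 0.000778). Lamp2, its relative that also serves chaperone-mediated autophagy, stood at 287, 294 and 273 CPM in unstimulated wild-type, 325, 334 and 289 in CpG-treated wild-type, 323, 281 and 265 in unstimulated knockout and 342, 322 and 329.8 in CpG-treated knockout libraries, and its estimates with CpG were 0.15 (SE 0.10) and 0.19 (SE 0.10) on the log2 scale. Mcoln1, the calcium channel of the lysosomal membrane that acts upstream of TFEB, stood at 25.7, 27.3 and 20.8 CPM in unstimulated wild-type, 28.2, 28.9 and 21.6 in CpG-treated wild-type, 29.3, 27.6 and 26.5 in unstimulated knockout and 21.5, 21.5 and 21.2 in CpG-treated knockout libraries. The 3 CpG-treated knockout libraries, at 21.2 to 21.5 CPM, lay below the unstimulated knockout ones, by -0.38 on the log2 scale (SE 0.13; edgeR adjusted p = 0.0993). The CpG effects on Mcoln1 differed between genotypes by -0.47 (SE 0.19), with an unadjusted p of 0.0271 in edgeR.

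No gene passed for the interaction of genotype and CpG: 0 of 35, beside 0% of the 10802 genes tested in edgeR. An unadjusted p under 0.05 was reached by 3 of the 35, Ctsa, Ctse and Mcoln1, beside 3.38% of all genes, and DESeq2 called 0 of the 35. So these data do not show that CpG acted differently on any of the 35 genes in the 2 genotypes, and do not show that it acted alike.

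With genotype and library number together as a block, which takes out what same-numbered wild-type libraries share, 7 of 35 genes were called for CpG in wild-type cells, 5 higher and 2 lower, in edgeR. The 4 genes called without the block remained, and Atp6v0c, Lamp1 and Ctss were added. The same fit called 16.9% of all genes tested.

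Genes of the same pathway outside the symbol rule were called in both directions. Of 104 such genes tested, 4 rose and 3 fell with CpG in wild-type cells (4.74% and 1.30% of all genes), 3 rose and 13 fell with CpG in knockout cells (7.57% and 4.06% of all genes), 2 were higher and 3 lower in the unstimulated knockout (2.11% and 2.64% of all genes), and 0 were higher and 3 lower in the knockout with CpG (1.70% and 2.21% of all genes). As shares of the 104, those called were 6.73%, 15.4%, 4.81% and 2.88%, beside 6.04%, 11.6%, 4.75% and 3.92% of all genes. The largest rises among those called were in lysosomal enzymes, of which 34 were tested. In wild-type cells 3 of these rose and 1 fell, and in knockout cells 3 rose and 4 fell. Acp2, lysosomal acid phosphatase, rose from 18.6 to 57.4 CPM in wild-type (log2 1.63, SE 0.11) and from 16.4 to 66.2 CPM in knockout cells (log2 2.02, SE 0.11). Ggh, which trims folates in lysosomes, rose from 18.8 to 57.2 CPM (log2 1.60, SE 0.17) and from 12.4 to 57.5 CPM (log2 2.22, SE 0.17). Acp5, the tartrate-resistant phosphatase of osteoclasts and macrophages, rose by 1.75 (SE 0.42) and 1.51 (SE 0.44) on the log2 scale, from means of 3.98 and 3.18 CPM. The edgeR adjusted p for the wild-type rises was 7.20e-07 for Acp2, 4.47e-05 for Ggh and 0.0247 for Acp5. The heparan sulfatase gene Sgsh fell by 0.96 in wild-type and by 0.93 in knockout cells on the log2 scale (edgeR adjusted p = 0.00859 and 0.00688), and Aga, Gusb and Hexa, which encode enzymes that break down glycoproteins, glycosaminoglycans and glycolipids, fell in knockout cells by 0.77, 0.75 and 0.70 (edgeR adjusted p between 0.00283 and 0.0482). These 4 were chosen for mention after their values were seen.

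Of 21 other lysosomal membrane proteins 1 fell with CpG in wild-type and 4 in knockout cells, beside 1.30% and 4.06% of all genes. In both genotypes 0 rose, beside 4.74% and 7.57% of all genes. Tpcn1, an ion channel of endosomes, fell by 0.92 in wild-type (SE 0.20; edgeR adjusted p = 0.0141) and by 1.02 in knockout cells (SE 0.20; edgeR adjusted p = 0.00448) on the log2 scale. In knockout cells the cholesterol transporter gene Npc1 fell by 0.63 and Tpcn2 by 0.57, and of the genes around the kinase complex mTORC1, Fnip2 fell by 0.77, Rragd by 0.53 and Rptor by 0.51 (edgeR adjusted p between 0.00621 and 0.0306). Mitf, the relative of Tfeb and Tfe3, rose by 0.50 in wild-type cells (SE 0.13; edgeR adjusted p = 0.0407). Of 14 genes of sorting to lysosomes, 1 fell with CpG in knockout cells, Nagpa, from a mean of 6.9 to 4.12 CPM. Of the genes that assemble or hold the pump, Rogdi fell by 0.61 in wild-type cells and Wdr7 by 0.60 in knockout cells (edgeR adjusted p = 0.0243 and 0.0441), and the a3 gene Tcirg1 did not pass, at means of 96.9 and 97.1 CPM in wild-type without and with CpG and 88.1 and 79.0 CPM in the knockout.

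Between genotypes, Lamtor1 and Lipa were lower in the knockout in both treatments. Lamtor1, which anchors the Ragulator complex to lysosomes, averaged 112 against 165 CPM without CpG (log2 -0.56, SE 0.12; edgeR adjusted p = 0.0139) and 119 against 165 CPM with it (log2 -0.47, SE 0.12; edgeR adjusted p = 0.0443). Lipa, lysosomal acid lipase, averaged 33.3 against 52.5 CPM (log2 -0.66, SE 0.14; edgeR adjusted p = 0.0143) and 37.8 against 72.0 CPM (log2 -0.93, SE 0.14; edgeR adjusted p = 0.00112). Without CpG, Rragd and Slc15a3, a transporter of endosomal peptides, were higher in the knockout by 0.57 and 0.63, and the sphingomyelinase gene Smpd1 was lower by 0.63 on the log2 scale. With CpG, the lysosomal enzyme gene Ppt1 was called lower in the knockout, at means of 43.6 against 62.7 CPM.

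The 6 matching genes below the minimum were nearly silent. Atp6v0a4 and Atp6v1e2 had 1 count each over all libraries, and Atp6v1c2 and Atp6v1g3 had 2 each. Ctsf had 51 and Ctsw 60, with at least 10 counts in 1 library each. Just inside the minimum were Atp6v0d2, with 8 to 32 counts per library, and Ctsk, with 10 to 67. Atp6v1b1, Atp6v0e2, Atp6ap1l, Ctsj, Ctsm, Ctsq and Ctsr were not analysed here.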

How the data were processed

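Reads of 12 libraries were turned into per-transcript tables by the authors. Bowtie2, RSEM 1.2.28 and genome build GRCm39 are named in the submitters' processing notes. Estimated counts per RefSeq transcript were used as the authors deposited them, summed over each NCBI gene and rounded. TPM values, which the authors scaled by length and library before deposit per the file headers, were summed per gene and used to compare levels between genes. The authors' FPKM values in the same tables were left out. Symbols for 15883 of 15986 genes came from RefSeq (GRCm38.p6), used for names and promoter sequences only.

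The test was edgeR's quasi-likelihood fit (version 4.0.16, R 4.3.3) of 4 group means, with TMM scaling, the filterByExpr filter, 10802 genes and 8 residual degrees of freedom. Adjusted p means Benjamini-Hochberg over those genes. The fit was tested on simulated counts. The members, the lists and the rule for named genes were chosen with earlier results of these data known. Values per library are given for genes called at least once, for the transcription factors, membrane proteins, legumain and Atp6ap2, for the most abundant gene of a group and for multi-copy subunits. Pathway genes outside the rule are named up to 3 per list, largest change first.

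Pairing was checked by correlating residual log CPM. For wild-type cells the 3 same-numbered pairs gave 0.28, 0.41 and 0.44, each above 0.1, so these libraries count as paired. In the knockout the values were 0.62, 0.09 and 0.68. No 2 libraries of a group had counts within sampling noise of each other. Alternatives were other scalings and filters, a robust fit, fewer libraries, blocks and DESeq2 1.42.0.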

Additional observations from a re-analysis of the deposited data

How the results depend on the processing

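Of 207 refits of the single-gene calls under the alternatives, 200 kept direction and call, 7 lost the call and 0 reversed. Lost calls concerned Ctsb and Ctse and are given with those genes, except Ctsb in the knockout when only the knockout libraries were fitted (adjusted p = 0.0628 in edgeR). The cause was not tested. For CpG in wild-type cells 3 to 5 of the 35 genes were called when each library was left out in turn, for CpG in the knockout 4 to 5, for the unstimulated knockout 0 to 2, for the knockout with CpG 0 to 1, and for the interaction 0. Against 4, 4, 1 and 0 called in these comparisons, library-size scaling called 4, 7, 2 and 1. DESeq2 1.42.0 called 6, 5, 3 and 1, and an edgeR fit with no filter called 2 for the unstimulated knockout. Alternatives chosen after seeing the data left out both knockout libraries numbered 1, which gave 2 for the unstimulated knockout, or both numbered 3, which gave 2 there and 2 for the knockout with CpG. Over all genes, the CpG calls in wild-type cells moved from 652 to 425 without unstimulated wild-type library 1 and to 432 without CpG-treated wild-type library 2, and those in the knockout from 1257 to 818 without unstimulated knockout library 2. Calls in the unstimulated knockout moved from 513 to 328 or 324 without unstimulated wild-type library 1 or 3, to 311 or 278 without unstimulated knockout library 1 or 2, to 341 without both numbered 1 and to 782 in DESeq2. Calls in the knockout with CpG moved from 423 to 234 without CpG-treated wild-type library 1, to 699 without CpG-treated knockout library 3, to 824 without both numbered 3, to 253 with only the libraries compared and to 734 in DESeq2, which also called 3 genes for the interaction. Counted in CPM, without scaling for length, Ctsd was 6.2 times Atp6v0c, against 3.41 in TPM. Low counts limit Atp6v0d2, Ctsk, Ctso and Atp6v1g2.

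With genotype and number together as a replicate block (for the knockout effects a random term in limma voom, otherwise a fixed term in edgeR), 7 genes were called for CpG in wild-type cells, 13 for CpG in the knockout (6 higher, 7 lower), 3 for the unstimulated knockout (Atp6v1b2, Ctse and Ctss), 0 for the knockout with CpG and 0 for the interaction. Over all genes that block called 1824, 2591, 514, 413 and 13. The 13 members called for CpG in the knockout were Atp6v0a1, Atp6v0c, Atp6v0d1, Atp6v1c1, Ctsa, Ctsb, Ctsd, Ctsl, Ctsz, Lamp1, Lgmn, Mcoln1 and Tfe3. The number alone as a replicate block called 6, 6, 3, 0 and 0 of the 35. In the knockout, where the pairing check fell to 0.09 for number 2, the numbers are not taken as pairs, although each library correlated best with that of its own number.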
